A study of Homo sapiens with 6 samples.

Results

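Mitotic regulators, mitotic kinesins and kinetochore genes were followed through lactate treatment as a set of 50 genes, taken by symbol from an expression table of 31368 genes. The set was chosen by what the proteins do in mitosis, with earlier results of these data known. All 50 symbols were found, once each. 48 of the 50 reached at least 1 FPKM (fragments scaled to transcript length and library total) in at least 3 libraries and were tested. The kinetochore motor CENPE and the microtubule bundler PRC1 fell below that level.

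RNA was sequenced after poly-A selection from CAL27, an established line of human oral squamous carcinoma cells. The untreated group and the group kept for 24 h with 10 mM lactate had 3 libraries each, and both are the same line with no other agent or genetic change in the labels. The study asked how lactate, and the protein lactylation it feeds, relates to gene regulation in this cancer. The labels do not say that the libraries came from separate cultures, so a p-value here reflects the spread of these 3 libraries per group, and that spread may be technical.

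The cyclin-dependent kinase CDK1, bound to cyclin A and then cyclin B, drives cells into mitosis, with Polo and Aurora kinases and the CDC25 phosphatases pushing the switch. Kinetochores, built on centromeric chromatin, attach chromosomes to a spindle shaped by kinesin motors, and the spindle checkpoint holds back the anaphase-promoting complex until every chromosome is attached. Most of these genes are transcribed in late S phase to mitosis under the DREAM and MuvB complexes with B-MYB and FOXM1, which act through promoter elements called the CHR and the CCAAT box, and in tumours their level is widely read as a sign of proliferation.

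The set did not move as a block. 22 of the 48 tested members rose and 15 fell with lactate, and 11 did not pass the threshold (limma on log2(FPKM + 1), Benjamini-Hochberg adjusted p under 0.05 over all 11792 genes tested). Lactate also moved a large share of all genes tested, of which 27.7% were called higher and 30.9% lower, 58.6% in all. Among the tested members 45.8% were higher and 31.2% lower. With the filter set at 5 FPKM instead of 1, 21 of 45 members rose and 15 fell. Of all 6448 genes kept by that filter, 1786 rose and 2955 fell. The 3 lactate values did not overlap the 3 untreated values in 41 members (85.4%), which include all 37 called, against 65.5% of all genes tested. Changes were small, from -0.29 to 0.46 on the log2(FPKM + 1) scale with a median of 0.07, where the median of all genes tested was -0.02. 10 members were at least 1.2-fold higher by the ratio of means and 3 at least 1.2-fold lower. That count was not made over all genes tested, so it does not set the members apart from them. Summed over the 50 members the level hardly moved, at 1477, 1473 and 1476 FPKM in untreated replicates 1 to 3 and 1462, 1445 and 1453 FPKM in lactate replicates 1 to 3. In RNA from whole cultures, a change in the share of cells in mitosis and a change in RNA of these genes per cell cannot be told apart.

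**Figure D1:**
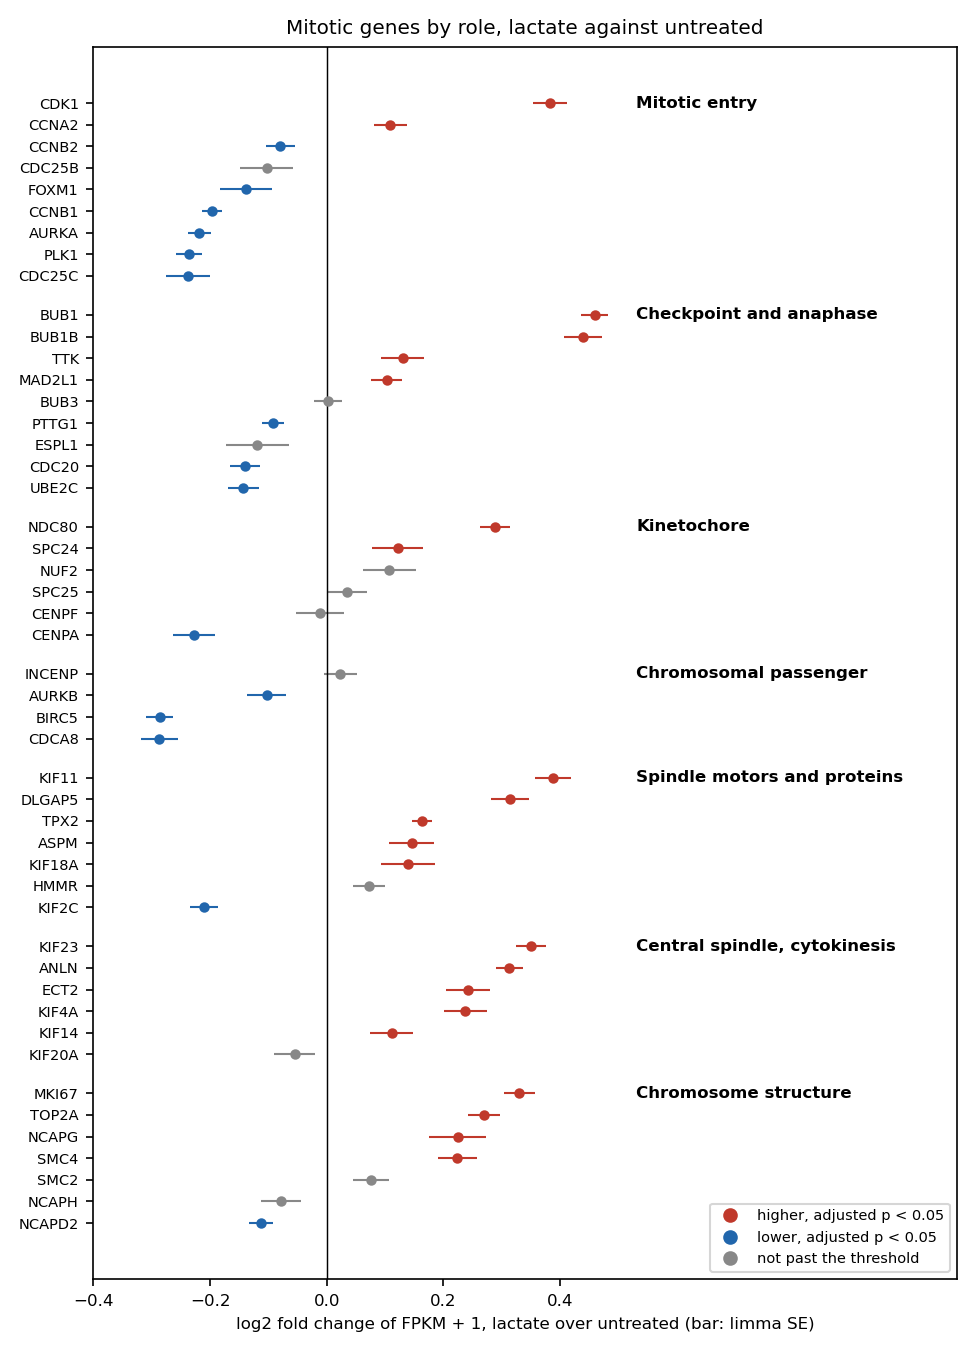
Log2 fold change of FPKM + 1, lactate over untreated, for the 48 tested members grouped by role, with bars for limma's standard error and colour for the call. The central spindle group lies almost wholly to the right of 0, the chromosomal passenger group mostly to the left, and the mitotic entry group is split between CDK1 on the right and CCNB1, AURKA, PLK1 and CDC25C on the left.

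Libraries held 25681536 to 39125828 recovered reads, which put 606 to 14908 reads per library behind each tested member. All 10 epithelial markers listed, squamous and general, were expressed, with a summed level of 1054 to 1071 FPKM in untreated and 1064 to 1085 FPKM in lactate libraries. Their untreated means ran from 2.02 FPKM for KRT14 to 602 FPKM for SFN. 7 of the 10 rose, among them KRT17 by 25.6% and CDH1 by 22.5%, 2 fell, KRT5 by 23.7% and KRT6A by 17.2%, and SFN, the most abundant, did not pass. Of all genes tested 27.7% rose and 30.9% fell. Markers of other cell types stayed near 0. None of the 5 fibroblast markers found reached 1 FPKM on average, and their sums were 1.04 to 1.19 FPKM in untreated and 1.59 to 1.79 FPKM in lactate libraries. None of the 4 leukocyte markers did either (sums of 0.735 to 0.877 against 0.380 to 0.628 FPKM), and of the 3 endothelial markers CDH5 alone did (sums of 1.13 to 1.41 against 1.03 to 1.13 FPKM). MS4A1 was listed at 0 in 5 of 6 libraries, COL3A1 in 4, CD3E in 2 and CD68 in 2.

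The promoters of the set carried the cell-cycle letters far more often than other promoters. 43 of the 50 members had a window in the RefSeq promoter table (GRCh38.p14), running from 250 bases before to 50 bases after the first listed start. On either strand TTTGAA, the core of the CHR, was present in 31 of these 43 windows (72.1%), against 9.23% of 8069 windows of protein-coding genes tested and 15.4% of all 27305 windows. CCAAT was present in 32 of 43 (74.4%) against 37.3% and 35.7%. Both were present in 24 (55.8%) against 4.05% and 6.08%. The members that rose held TTTGAA in 17 of 20 windows (85.0%) and those that fell in 6 of 11 (54.5%), while CCAAT was in 75.0% and 81.8% of them. The difference between risers and fallers was not tested, and a match of letters does not show a bound site.

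The stretches below begin 120 bases before the start and are shown because they span both responses, with and without the letters; each ends before the first base of any GENCODE 29 exon. Letters of TTTGAA and CCAAT on either strand are in capitals, so that the reverse strand reads TTCAAA and ATTGG. MKI67 (chr10:128126424-128126543, minus strand), KIF11 (chr10:92593010-92593129, plus strand) and KIF4A (chrX:70289984-70290089, plus strand) rose. CDC20 (chr1:43358861-43358954, plus strand) and KIF2C (chr1:44739717-44739817, plus strand) fell. CDK1 (chr10:60778211-60778330, plus strand) rose and holds its letters further up, TTTGAA from base -161 and CCAAT from base -150.
MKI67: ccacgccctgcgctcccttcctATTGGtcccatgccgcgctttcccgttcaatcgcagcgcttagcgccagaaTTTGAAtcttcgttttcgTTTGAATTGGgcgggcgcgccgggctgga
KIF11: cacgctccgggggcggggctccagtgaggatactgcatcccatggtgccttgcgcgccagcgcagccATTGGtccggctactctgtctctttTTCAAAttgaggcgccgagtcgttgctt
KIF4A: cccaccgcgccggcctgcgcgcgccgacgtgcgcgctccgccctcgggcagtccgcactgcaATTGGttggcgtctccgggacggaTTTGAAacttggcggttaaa
CDC20: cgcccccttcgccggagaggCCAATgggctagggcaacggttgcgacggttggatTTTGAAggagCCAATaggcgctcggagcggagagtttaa
KIF2C: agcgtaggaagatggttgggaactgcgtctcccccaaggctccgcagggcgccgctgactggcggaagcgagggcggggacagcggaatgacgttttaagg
CDK1: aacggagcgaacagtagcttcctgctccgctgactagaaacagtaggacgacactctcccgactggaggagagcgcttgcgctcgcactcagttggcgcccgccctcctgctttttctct
In the MKI67 stretch the second TTTGAA and an ATTGG share letters. KIF4A, which rose, and CDC20, which fell in the main test, carry both elements within the same short span. The fall of CDC20 did not hold under quantile normalization (log2 0.02, not called). Both elements were present in 12 of 20 windows of members that rose and in 6 of 11 of those that fell. Whether the pair separates the responses was not tested.

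**Figure D2:**
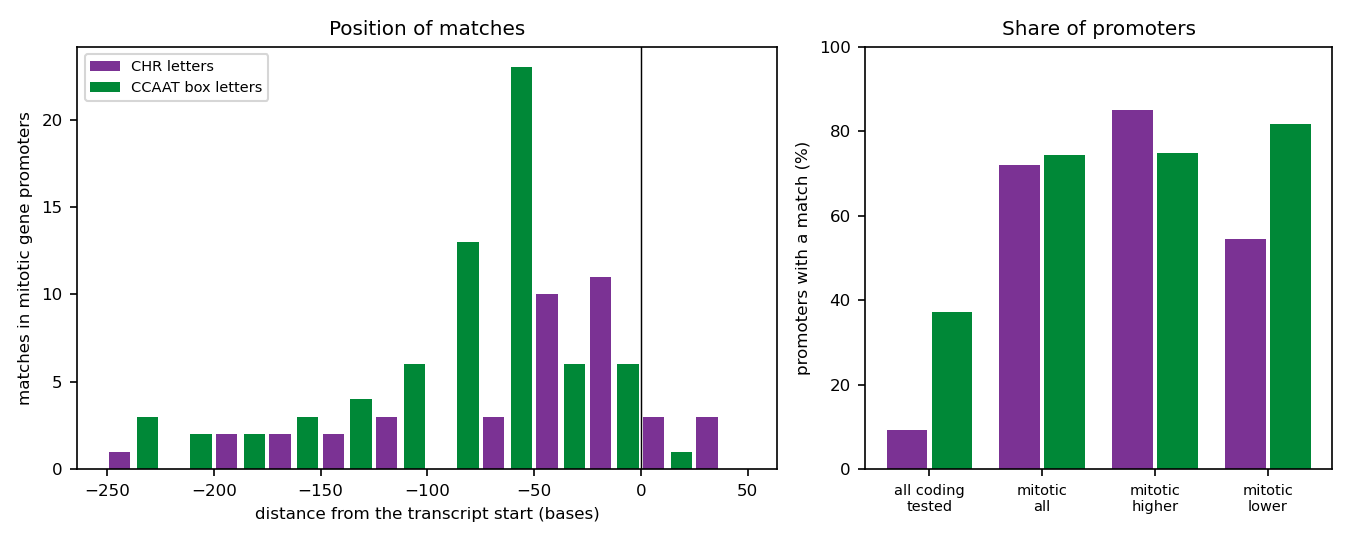
Left, number of TTTGAA (CHR letters) and CCAAT matches on either strand in the 43 promoter windows, in bins of 25 bases by distance from the transcript start; right, percent of windows with a match among all protein-coding genes tested and among the members, those higher and those lower. CCAAT matches peak just upstream of the CHR matches, and all 3 member groups stand above the protein-coding genes for both elements.

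Among the mitotic entry genes, the catalytic subunit rose while its B-type cyclin partners and its upstream activators other than CDC25B fell. In all, 2 of 9 rose, 6 fell and 1 did not pass. CDK1 (ENSG00000170312, chr10:60778331-60794852 in GENCODE 29) stood at 32.5, 31.5 and 30.9 FPKM in untreated and 42.7, 41.5 and 40.4 FPKM in lactate replicates 1 to 3. The groups were far apart, a rise of 31.3% (log2 0.38 ± 0.029 SE, limma adjusted p = 4.96e-05). CCNB1, the main mitotic cyclin and the most abundant member of the set, went the other way, from 166, 164 and 165 to 145, 141 and 145 FPKM. That was a fall of 12.8% with no overlap (log2 -0.20 ± 0.017 SE, adjusted p = 9.2e-05), though quantile normalization reduced it to -0.03 and ended the call (adjusted p = 0.135). The ratio of CDK1 to CCNB1 FPKM, a pair picked after the values were seen, went from 0.192 ± 0.00399 to 0.289 ± 0.00928 (SD, n = 3).

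The kinases around the switch fell together. PLK1, the Polo kinase, read 24.1, 24.2 and 24.7 FPKM untreated and 20.3, 20.7 and 20.5 FPKM with lactate, 15.7% lower (log2 -0.24 ± 0.023 SE, limma adjusted p = 0.000137). AURKA, the centrosomal Aurora kinase, read 56.3, 55.4 and 56.3 against 48.0, 47.3 and 48.7 FPKM, 14.3% lower (log2 -0.22 ± 0.020 SE, adjusted p = 0.000114). In both genes every lactate library was below every untreated one. CDC25C, a phosphatase that activates CDK1, was 16.9% lower (log2 -0.24, adjusted p = 0.00117), while its relative CDC25B, at 15.1 ± 0.262 and 14.0 ± 0.952 FPKM (SD, n = 3), did not pass (adjusted p = 0.0899).

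The remaining entry genes changed by less. CCNA2, the S-phase and early mitotic cyclin, rose by 8.30% (log2 0.11, limma adjusted p = 0.0123). CCNB2 was 5.48% lower (log2 -0.08, adjusted p = 0.0276), a direction that turned to 0.015 under quantile normalization. FOXM1, the transcription factor of late cell-cycle genes, read 11.5, 12.0 and 11.6 FPKM untreated and 9.79, 10.8 and 11.0 FPKM with lactate, 9.87% lower (log2 -0.14 ± 0.045 SE, adjusted p = 0.0296). The lowest FOXM1 value was in lactate replicate 1, without which the adjusted p was 0.0541. FOXM1 shares 15.9% of its exonic length with ITFG2 on the other strand, and whether counting told the strands apart is not given here.

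The checkpoint genes held the steepest rises of the set, and the genes of anaphase onset fell or did not pass: over these 9 genes 4 rose, 3 fell and 2 did not pass. BUB1 (ENSG00000169679, chr2:110637698-110678114), the checkpoint kinase that marks centromeric chromatin, went from 12.9, 13.2 and 12.9 to 18.2, 18.2 and 18.4 FPKM. It rose by 40.3%, with a gap between groups many times the spread within them (log2 0.46 ± 0.024 SE, limma adjusted p = 1.39e-05). BUB1B (ENSG00000156970, chr15:40161023-40221136), which encodes BUBR1, a part of the complex that inhibits the anaphase-promoting complex, went from 11.6, 12.0 and 12.0 to 16.9, 15.8 and 16.7 FPKM. Its rise was 38.6% (log2 0.44 ± 0.033 SE, adjusted p = 4.92e-05). BUB1 and BUB1B were the 2 of 48 members that passed a test against a minimum change of 1.2-fold. Of all 11792 genes tested, 187 passed it as higher and 242 as lower.

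Their partners moved less. TTK, the kinase at the head of the checkpoint, rose by 10.4% (log2 0.13, limma adjusted p = 0.018), and MAD2L1, which binds and holds CDC20, rose by 7.95% (log2 0.10, adjusted p = 0.0114). BUB3, the scaffold of both BUB kinases, read 29.5 ± 0.597 and 29.5 ± 0.425 FPKM (SD, n = 3) and did not pass (adjusted p = 0.957).

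CDC20, the activator of the anaphase-promoting complex and the target of the checkpoint, went from 157, 164 and 163 to 142, 149 and 148 FPKM. Groups did not overlap and the fall was 9.32% (log2 -0.14 ± 0.026 SE, limma adjusted p = 0.00263), but the sign turned under quantile normalization (0.02). UBE2C, the ubiquitin-conjugating enzyme of that complex, read 121, 120 and 121 against 114, 108 and 106 FPKM, 9.50% lower (log2 -0.14 ± 0.027 SE, adjusted p = 0.00279), and also turned under quantile normalization (0.02). PTTG1, which encodes securin, was 6.24% lower (log2 -0.09, adjusted p = 0.00435), and quantile normalization made it a rise (0.05, adjusted p = 0.0472). ESPL1, which encodes separase, did not pass at 4.28 ± 0.167 and 3.87 ± 0.319 FPKM (SD, n = 3; adjusted p = 0.0919). Set against CDC20, BUB1B went from a ratio of 0.0736 ± 0.000449 to 0.113 ± 0.00669, and BUB1 set against PLK1 from 0.535 ± 0.0117 to 0.890 ± 0.0119 (SD, n = 3, pairs picked after the values were seen).

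**Figure D3:**
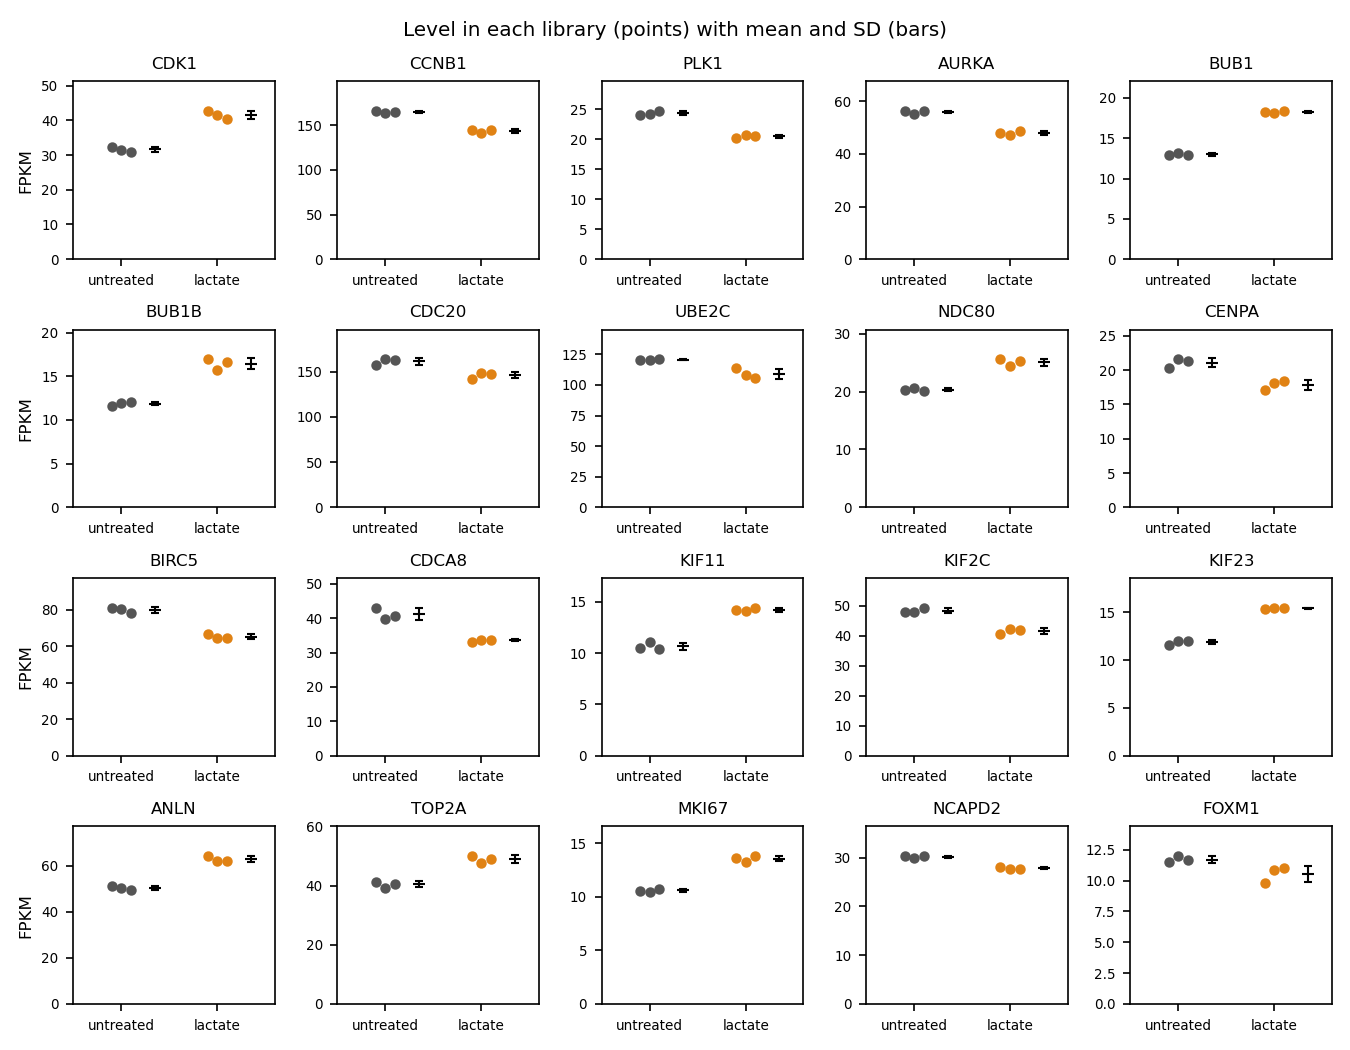
FPKM of 20 members in each library, untreated in grey and lactate in orange, with the mean and SD of 3 libraries beside the points and each axis starting at 0. The lactate points lie above all untreated points in CDK1, BUB1, BUB1B, NDC80, KIF11, KIF23, ANLN, TOP2A and MKI67, and below them in the other 11 panels.

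At the kinetochore NDC80 rose and the centromeric histone CENPA fell: of 6 tested genes 2 rose, 1 fell and 3 did not pass. NDC80, the main microtubule-binding subunit, went from 20.3, 20.6 and 20.1 to 25.5, 24.3 and 25.3 FPKM, a rise of 23.2% with no overlap (log2 0.29 ± 0.026 SE, limma adjusted p = 0.000105). SPC24, of the same 4-subunit complex, read 16.9, 15.6 and 16.1 against 18.7, 17.0 and 17.5 FPKM, 9.37% higher (log2 0.12 ± 0.043 SE, adjusted p = 0.0433), a call that was lost when, for example, untreated replicate 2 was left out (adjusted p = 0.122). The other subunits did not pass: NUF2 read 7.07 ± 0.444 and 7.69 ± 0.200 FPKM, and SPC25 15.7 ± 0.285 and 16.1 ± 0.689 FPKM (SD, n = 3; adjusted p of 0.0737 and 0.414).

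CENPA, the histone H3 variant that marks centromeres, went from 20.4, 21.6 and 21.4 to 17.1, 18.2 and 18.4 FPKM, 15.3% lower with no overlap (log2 -0.23 ± 0.036 SE, limma adjusted p = 0.00124). CENPF, a corona protein, did not pass at 6.97 ± 0.324 and 6.91 ± 0.252 FPKM (SD, n = 3; adjusted p = 0.825). CENPE, not tested, read 0.969, 0.881 and 0.862 FPKM untreated and 1.01, 1.02 and 0.789 FPKM with lactate, and its groups overlapped.

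The chromosomal passenger complex, which corrects wrong attachments, leaned downward: 3 of 4 genes fell and none rose. CDCA8 (ENSG00000134690, chr1:37692418-37709719), which encodes borealin, went from 43.1, 39.7 and 40.7 to 33.2, 33.6 and 33.8 FPKM, 18.5% lower (log2 -0.29 ± 0.032 SE, limma adjusted p = 0.000242). BIRC5, which encodes survivin, went from 81.1, 80.3 and 77.9 to 66.6, 64.4 and 64.7 FPKM, 18.2% lower (log2 -0.29 ± 0.023 SE, adjusted p = 6.37e-05). These localising subunits held the deepest falls of the set, and neither overlapped between groups. AURKB, the kinase of the complex, went from 31.6, 34.0 and 32.4 to 29.4, 31.1 and 30.4 FPKM, 7.10% lower (log2 -0.10 ± 0.033 SE, adjusted p = 0.0309). The AURKB call was lost under quantile normalization (log2 -0.02, limma adjusted p = 0.672) and when scaled to read totals (log2 -0.03, adjusted p = 0.488). INCENP, the scaffold, did not pass at 9.76 ± 0.151 and 9.93 ± 0.206 FPKM (SD, n = 3; adjusted p = 0.512). The ratio of BIRC5 to INCENP, a pair also picked after the values were seen, fell from 8.18 ± 0.291 to 6.57 ± 0.165 (SD, n = 3).

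Spindle motors and microtubule-associated proteins mostly rose: 5 of 7 were higher, 1 lower and 1 did not pass. KIF11, the plus-end motor that pushes spindle poles apart, went from 10.5, 11.1 and 10.4 to 14.2, 14.1 and 14.4 FPKM, a rise of 33.7% (log2 0.39 ± 0.030 SE, limma adjusted p = 5.79e-05). DLGAP5, which stabilises kinetochore fibres, went from 18.0, 17.0 and 17.1 to 22.4, 21.0 and 22.1 FPKM, a rise of 25.7% (log2 0.31 ± 0.033 SE, adjusted p = 0.000195). No lactate library overlapped an untreated one in either. TPX2, the activator of AURKA on the spindle, rose by 12.1% (log2 0.16, adjusted p = 0.000204) while AURKA itself fell.

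KIF2C, a kinesin that does not walk but takes microtubule ends apart, was the faller of the group. It went from 47.7, 47.9 and 49.3 to 40.6, 42.3 and 42.0 FPKM, 13.9% lower with no overlap (log2 -0.21 ± 0.025 SE, limma adjusted p = 0.000324). KIF18A, which dampens chromosome movements at the metaphase plate, rose by 11.7% (log2 0.14, adjusted p = 0.0326) and ASPM, a spindle pole protein, by 15.1% (log2 0.15, adjusted p = 0.0144). HMMR did not pass at 18.5 ± 0.422 and 19.5 ± 0.413 FPKM (SD, n = 3; adjusted p = 0.0547).

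Genes of the central spindle and of cytokinesis showed no fall past the threshold: 5 of 6 rose and 1 did not pass. KIF23, the motor of centralspindlin, went from 11.6, 12.0 and 12.0 to 15.3, 15.4 and 15.5 FPKM, a rise of 29.7% (log2 0.35 ± 0.026 SE, limma adjusted p = 4.48e-05). ANLN, which encodes the contractile-ring scaffold anillin, went from 51.0, 50.3 and 49.5 to 64.2, 62.1 and 61.8 FPKM, a rise of 24.7% (log2 0.31 ± 0.023 SE, adjusted p = 4.68e-05). Both were apart from the untreated values in every library.

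ECT2, the exchange factor that switches on RhoA at the cleavage site, rose by 19.0% (log2 0.24, limma adjusted p = 0.00118) and the chromokinesin KIF4A by 19.4% (log2 0.24, adjusted p = 0.00123). KIF14, which anchors citron kinase, rose by 10.2% (log2 0.11, adjusted p = 0.0339). KIF20A did not pass at 19.3 ± 0.486 and 18.5 ± 0.768 FPKM (SD, n = 3; adjusted p = 0.214). PRC1, not tested, was listed at 0.288 to 0.454 FPKM untreated and 0.297 to 0.479 FPKM with lactate. That level is uncertain, since 57.6% of the exonic length of PRC1 lies inside AC068831.7 on the same strand, a gene listed at 0.610 FPKM on average, and reads shared by both could be lost or split.

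Chromosome structure genes leaned upward, with 4 of 7 higher, 1 lower and 2 not passing. MKI67, the Ki-67 protein that coats mitotic chromosomes and is stained to score proliferation, went from 10.6, 10.5 and 10.7 to 13.6, 13.3 and 13.8 FPKM. That was a rise of 28.1% with no overlap (log2 0.33 ± 0.027 SE, limma adjusted p = 6.27e-05). TOP2A, the topoisomerase that untangles sister chromatids, went from 41.4, 39.4 and 40.6 to 50.1, 47.6 and 49.2 FPKM, a rise of 21.0% (log2 0.27 ± 0.028 SE, adjusted p = 0.000189).

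The condensin subunits, which compact chromosomes, did not move one way. SMC4 rose by 18.2% (log2 0.22, limma adjusted p = 0.000964) and NCAPG by 18.7% (log2 0.22, adjusted p = 0.0058). NCAPD2 went from 30.3, 29.9 and 30.4 to 28.1, 27.7 and 27.7 FPKM, 7.75% lower with no overlap (log2 -0.11 ± 0.020 SE, adjusted p = 0.00251), a call that quantile normalization ended (log2 -0.04, adjusted p = 0.158). SMC2 and NCAPH did not pass, at 15.9 ± 0.442 and 16.8 ± 0.408 FPKM and at 9.03 ± 0.270 and 8.50 ± 0.265 FPKM (SD, n = 3; adjusted p of 0.0645 and 0.0839). NCAPG shares 33.1% of its exonic length with LCORL and SMC4 18.5% with TRIM59, both on the other strand, at 0.369 and 2.79 FPKM. NCAPD2 shares 7.49% with MRPL51, also on the other strand and far more abundant at 122 FPKM.

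The members that fell lay higher in abundance. Those that rose had untreated levels of 2.34 to 57.8 FPKM with a median of 12.4, and those that fell 9.02 to 165 FPKM with a median of 41.1. The 5 most abundant members, CCNB1, CDC20, UBE2C, PTTG1 and BIRC5, all fell. Falls also outnumbered rises among the more abundant genes at large. Of the 6448 genes kept by a filter at 5 FPKM, 1786 rose and 2955 fell, with a median change of -0.07. Over all 11792 genes tested, 3265 rose and 3649 fell.

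The call also moved with the base composition and length of the transcripts. Rising members had a median GC content of 39.7% (37.0% to 53.4%) and a median length of 5084.5 nt (2748 to 12845 nt). Falling members had a median GC content of 50.4% (43.2% to 57.9%) and a median length of 2753 nt (1286 to 6470 nt). Over the 48 members the log2 fold change followed GC content with a Spearman rho of -0.62 and length with 0.42. Over 9881 protein-coding genes tested, in the same libraries, the values were -0.48 and 0.32. These are descriptions across genes, which are not independent replicates.

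**Figure D4:**
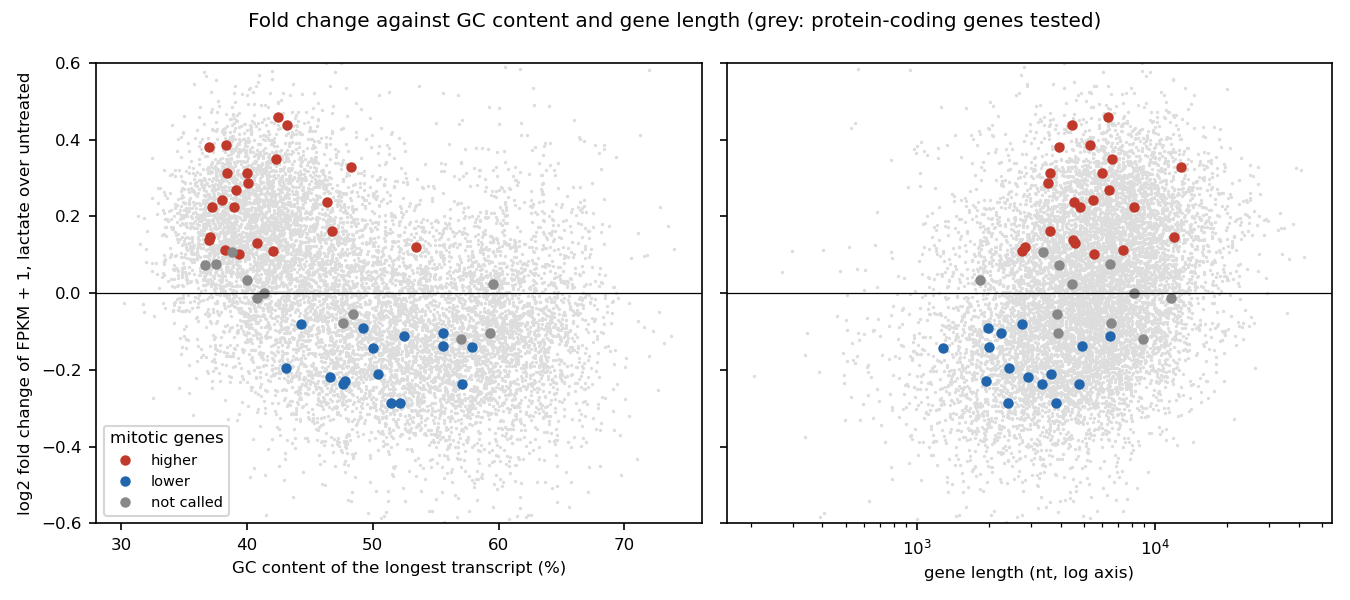
Log2 fold change of FPKM + 1, lactate over untreated, against GC content of the longest transcript (left, percent) and gene length (right, nt, log axis), with the 9881 protein-coding genes tested in grey and the 48 members in colour by call. Rising members gather at low GC content and falling members at higher GC content, and the grey points also slope downward; 23 grey points lie outside the range of ± 0.6.

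After a trend with GC content and length was taken out of each library, 15 members were higher and 12 lower, against 23% and 25.8% of the 11588 genes in that fit, and the median change of the members was 0.0042. 14 of the 22 rises were kept: CDK1, BUB1, BUB1B, NDC80, SPC24, KIF11, TPX2, DLGAP5, KIF4A, KIF23, ECT2, ANLN, TOP2A and MKI67. 9 of the 15 falls were kept: CCNB1, CCNB2, CDC25C, PLK1, AURKA, CENPA, BIRC5, CDCA8 and KIF2C. The rises of CCNA2, MAD2L1, TTK, KIF18A, ASPM, KIF14, SMC4 and NCAPG no longer passed, and MAD2L1, ASPM and KIF14 changed sign. The falls of FOXM1, CDC20, UBE2C, PTTG1, AURKB and NCAPD2 no longer passed, and all but FOXM1 and NCAPD2 changed sign. BUB1 stood at 0.34, BUB1B at 0.37, MKI67 at 0.31 and CDK1 at 0.26 in this fit, and CCNB1 at -0.22, BIRC5 at -0.18 and CDCA8 at -0.15. 4 members that had not passed did so in this fit, INCENP as higher (0.12) and BUB3 (-0.15), CENPF (-0.19) and SMC2 (-0.09) as lower. By role the higher and lower calls in this fit were 1 and 5 of 9 for mitotic entry, 2 and 1 of 9 for checkpoint and anaphase, 2 and 2 of 6 for the kinetochore, and 1 and 2 of 4 for the passenger complex. They were 3 and 1 of 7 for the spindle and 2 and 1 of 7 for chromosome structure, while 4 of the 6 central spindle and cytokinesis genes were higher and the other 2 did not pass. How far composition and length account for the other changes was not tested.

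**Figure D5:**
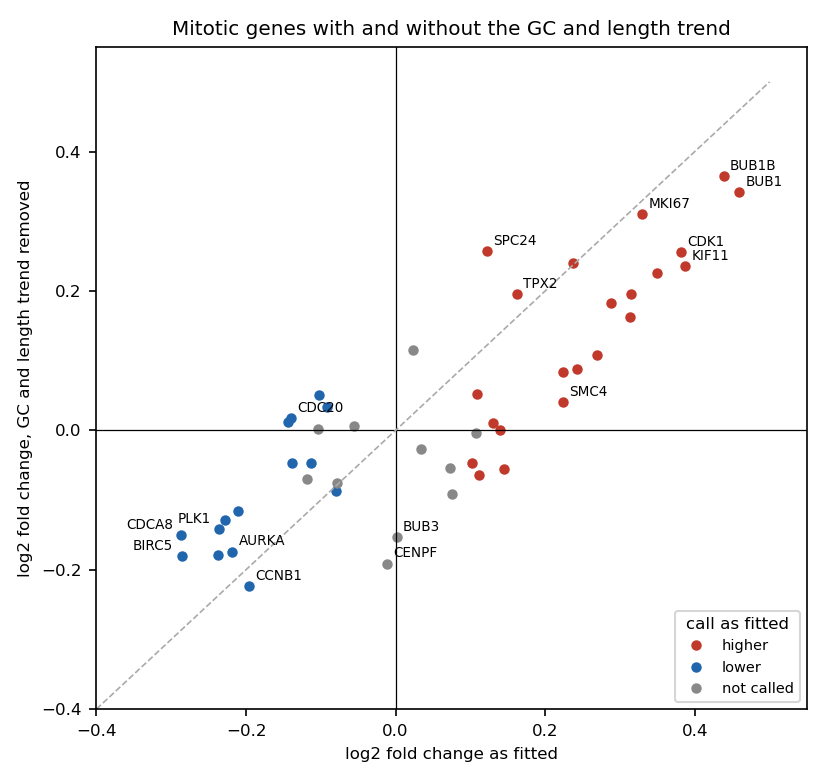
Log2 fold change of the 48 tested members as fitted (x axis) and with each library's GC and length trend removed (y axis), coloured by the call as fitted, with a dashed line at equal values. BUB1, BUB1B, CDK1 and MKI67 stay well above 0 and CCNB1, BIRC5 and CDCA8 well below, while CDC20 crosses 0 and BUB3 and CENPF drop below it.

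20 of the 37 calls, 13 rises and 7 falls, held in each alternative setting run, every scaling and each library left out included, apart from the minimum fold of 1.2. The rises were CDK1, BUB1, BUB1B, NDC80, KIF11, TPX2, DLGAP5, KIF4A, KIF23, ECT2, ANLN, TOP2A and MKI67. The falls were CDC25C, PLK1, AURKA, CENPA, BIRC5, CDCA8 and KIF2C. The split between rises and falls moved with scaling, to 24 and 8 under quantile normalization, 28 and 9 with FPKM rescaled to totals of recovered reads, and 19 and 17 with median centring. The split of all genes tested moved as well, to 3319 and 3224, 4210 and 2533, and 2934 and 4057 in that order. Rescaling to read totals moved the median of all genes tested to 0.04. Under that rescaling the falls of CCNB2, FOXM1, CDC20, PTTG1, AURKB and NCAPD2 no longer passed.

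7 calls, all with a change of at most 0.14 in size, were lost when 1 library was left out, each for more than 1 choice of library. AURKB lost its call without untreated replicate 2 or 3 or lactate replicate 1 or 3 (limma adjusted p of 0.0816, 0.0619, 0.093 and 0.0685). CCNB2 lost it without untreated replicate 1, 2 or 3 or lactate replicate 3 (0.0665, 0.0626, 0.0616 and 0.0907). FOXM1 lost it without untreated replicate 2 or 3 or lactate replicate 1 (0.0836, 0.0644 and 0.0541). TTK lost it without untreated replicate 3 or lactate replicate 1 (0.0605 and 0.0517), and SPC24 without untreated replicate 2 or 3 or lactate replicate 1 or 3 (0.122, 0.103, 0.12 and 0.0751). KIF18A lost it without untreated replicate 1 or 2 or lactate replicate 1 or 3 (0.0944, 0.0652, 0.097 and 0.0968). KIF14 kept it without lactate replicate 2 only (adjusted p of 0.0591, 0.0893, 0.0676, 0.102 and 0.11 for the others in order).

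Other genes of the same machinery are given in lists written from general knowledge, with earlier results of these data known. Their counts stand beside the shares of all genes tested that rose (27.7%) and fell (30.9%). Counts after removal of the GC and length trend are also given. Of the 17 genes of the anaphase-promoting complex and its regulators 5 rose, 7 fell and 5 did not pass (3, 5 and 9 with the trend removed). CDC27 rose from 14.9 ± 0.0417 to 18.2 ± 0.477 FPKM (log2 0.27) and the inhibitor FBXO5 rose (log2 0.17, but 0.06 and no call with the trend removed), while ANAPC5 fell from 21.2 ± 0.0714 to 17.3 ± 0.474 FPKM (log2 -0.28) and ANAPC16 fell (log2 -0.26). Of 30 other kinetochore genes tested 11 rose, 10 fell and 9 did not pass (4, 9 and 17 with the trend removed). Among them CENPI (log2 0.37) and CENPQ (0.31), of the constitutive centromere network, rose, CENPM of that network fell from 47.3 ± 0.609 to 37.5 ± 0.198 FPKM (log2 -0.33), and ZWINT, of the outer kinetochore, fell from 122 ± 2.39 to 97.3 ± 1.84 FPKM (log2 -0.32).

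Cohesin genes, which hold sister chromatids together, were 9 of 15 higher, 2 lower and 4 not passing, and with the trend removed 5, 3 and 7, where the median change went from 0.19 to 0.03. RAD21, the subunit that separase cuts, rose from 21.9 ± 0.703 to 27.7 ± 0.220 FPKM (log2 0.32) and SMC1A from 6.61 ± 0.153 to 8.84 ± 0.141 FPKM (log2 0.37). CDCA5, which encodes sororin, fell (log2 -0.22), as did the loader subunit MAU2 (log2 -0.17, limma adjusted p = 0.0231). The MAU2 call was lost with the trend removed (adjusted p = 0.0549) and without untreated replicate 1 or 2 or lactate replicate 1 (0.0715, 0.0691 and 0.0722). Of 21 other spindle and cytokinesis genes tested 9 rose, 5 fell and 7 did not pass (7, 3 and 11 with the trend removed). CEP55, which guides abscission, rose from 28.3 ± 1.15 to 39.1 ± 0.873 FPKM (log2 0.45) and the microtubule polymerase CKAP5 from 15.8 ± 0.289 to 21.4 ± 0.277 FPKM (log2 0.42), while KIF22 (log2 -0.25) and HAUS8 (log2 -0.24) fell. Of the 3 subunits found in condensin II alone NCAPG2 (log2 0.32) and NCAPD3 (0.18) rose and NCAPH2 (-0.31) fell, calls that were kept with the trend removed.

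Genes that restrain, promote or time the switch into mitosis were also mixed. Of 8 genes listed as entry brakes, phosphatases or phosphatase regulators 4 rose, 2 fell and 2 did not pass (1, 2 and 5 with the trend removed). MASTL, the kinase that turns off the phosphatase PP2A through its targets ENSA and ARPP19, rose from 2.62 ± 0.0786 to 3.45 ± 0.300 FPKM (log2 0.29), ARPP19 rose (log2 0.17, but -0.0014 and no call with the trend removed), and ENSA fell from 82.6 ± 0.900 to 65.7 ± 1.32 FPKM (log2 -0.33), as did CDC25A (log2 -0.25). Of 11 DREAM and MuvB genes tested 5 rose, 2 fell and 4 did not pass (2, 1 and 8 with the trend removed). The repressive pocket proteins RBL2 (3.37 ± 0.165 to 4.89 ± 0.217 FPKM, log2 0.43) and RBL1 (log2 0.25, but 0.10 and no call with the trend removed) rose, while E2F4, their partner, fell from 61.2 ± 1.47 to 50.5 ± 0.630 FPKM (log2 -0.27), as did, with overlapping groups, the activator MYBL2 (log2 -0.10, limma adjusted p = 0.0475). MYBL2 turned to 0.03 with the trend removed, and its call was lost under quantile normalization, when scaled to read totals, and without any 1 library other than lactate replicate 2 (adjusted p of 0.0676 to 0.146).

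Of 7 inhibitors of cyclin-dependent kinases tested 1 rose (CDKN3, log2 0.14), 2 fell (CDKN2A, log2 -0.32, and CDKN2C, log2 -0.17, but -0.04 and no call with the trend removed) and 4 did not pass (3, 1 and 3 with the trend removed). Of 9 cyclins, kinases and E2F factors of the G1/S step tested 2 rose, 4 fell and 3 did not pass (2, 1 and 6 with the trend removed). CDK4, the G1 kinase, fell from 85.0 ± 1.13 to 62.9 ± 1.80 FPKM (log2 -0.43, limma adjusted p = 2.04e-05), a larger change than the fall of any member, and CCNE1 fell (log2 -0.11, but 0.03 and no call with the trend removed, and no call when scaled to read totals). CDK6, its relative, rose (log2 0.13, but -0.06 and no call with the trend removed). The CDK6 call was also lost without untreated replicate 2 or lactate replicate 1 or 3 (adjusted p of 0.0598, 0.0652 and 0.0685). CCND1, the partner of both kinases, rose (log2 0.09).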

How the data were processed

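Poly-A RNA of CAL27 cells was sequenced as 6 libraries, 3 untreated and 3 given 10 mM lactate for 24 h, grouped by the treatment in the labels. The deposited table holds FPKM per gene. The submitters' processing notes name build hg38, featureCounts 1.5.0-p3, StringTie 1.3.3b, HISAT2 2.0.5 and fastp. Annotation and strand use: not given in the sources used here. Multiplying FPKM by length and a library constant gave whole reads (within 0.01) in all libraries for 31354 genes (99.9554%), 17037 of them with the GENCODE 29 length. The constants were fitted to the same values. For the other genes a length that gave whole reads was searched for, so their match is partly built in. The fitted lengths also entered the length trend and the recovered reads. These reads came to 102% to 103% of the libraries' denominators (25163374 to 40220226) in untreated and 97.0% to 98.2% in lactate libraries, a difference in scaling between libraries that no label mentions. 8154 table rows carry no symbol, and GENCODE 29, used for coordinates and GC content, held 30228 identifiers.

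The main test was limma 3.58.1 (R 4.3.3) with trended, robust variance on log2(FPKM + 1), group as the only term, for the 11792 genes reaching 1 FPKM in 3 or more libraries, over which p-values were adjusted. The added 1 understates changes of low genes. SE is limma's moderated SE and SD is over 3 libraries. No count test was run as a main test, since the unit is FPKM. The rule for values in every library took up to 2 members per role and direction with the smallest p, plus CDK1, CCNB1, PLK1, AURKB, FOXM1, MKI67 and TOP2A, and the untested members were added. Of each other list, up to 2 called genes per direction are named. Members, lists and tests were chosen with earlier results of these data known. Alternatives were other scalings, filters, a pseudocount of 0.1, protein-coding genes only, no variance trend, a stricter threshold (adjusted p under 0.01), a minimum fold of 1.2, voom on recovered reads, removal of the GC and length trend (natural splines, 4 degrees of freedom), a block for replicate number and, in turn, each library omitted. Promoters were RefSeq windows (GRCh38.p14). Python 3.11.15 with numpy 2.4.6, pandas 2.3.3 and matplotlib 3.10.9 did the rest.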

Additional observations from a re-analysis of the deposited data

How the results depend on the processing

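22 members rose and 15 fell in the main analysis. Members that fell numbered 8 under quantile normalization, 9 when scaled to read totals and 0 against a minimum fold of 1.2 (limma treat, also 0 at an unadjusted p under 0.05, the one tool run for this), where 2 rose (7 unadjusted). All genes numbered 3265 up and 3649 down, against 187 and 242 with that minimum fold and 4210 and 2533 when scaled to read totals. With the 5 FPKM filter they numbered 1786 up and 2955 down. The member median of 0.07 became 0.053 with median centring, 0.14 when scaled to read totals, 0.054 with no filter and 0.0042 with the trend removed, with or without the replicate block. voom called 24 members up and 18 down, and 3518 and 3874 of all genes. With 1 library left out, 18 to 22 members rose and 12 to 17 fell, with medians of 0.058 to 0.092. Of all genes, 2741 to 3056 rose and 3226 to 3461 fell in those fits.

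Signs turned under quantile normalization for CCNB2 (0.015), CDC20 (0.021), UBE2C (0.019), PTTG1 (0.053) and KIF20A (0.0078), with median centring for BUB3 (-0.020), and when scaled to read totals for CENPF (0.052) and KIF20A (0.014). With the GC and length trend removed they turned, with the same values under the replicate block, for CDC25B (0.0016), BUB3 (-0.15), MAD2L1 (-0.046), CDC20 (0.017), UBE2C (0.012), PTTG1 (0.033), NUF2 (-0.0039), SPC25 (-0.026), AURKB (0.051), ASPM (-0.056), HMMR (-0.054), KIF14 (-0.064), KIF20A (0.0069) and SMC2 (-0.092). Leaving out single libraries gave CENPF values of -0.045 to 0.015 and BUB3 values of -0.011 to 0.017, neither of them called. The causes were not tested.

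With the replicate number as a block 23 members rose and 15 fell (all genes 3257 and 3782). Deviations of same-numbered libraries correlated at 0.053, 0.067 and -0.0038. Replicates 1 and 2 of each group correlated best with their own number, and replicate 3 did not. The labels give no pairing, and correlations this small cannot show whether the numbers pair the libraries. The members under the 1 FPKM filter had the fewest reads of the set, CENPE 220 to 333 and PRC1 40 to 87 per library.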
